A study of Rattus norvegicus with 16 samples.

Results

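The comparison described here is that of liver from rats lacking Tspo with liver from wild-type rats, both fed a methionine- and choline-deficient (MCD) diet. It covered the 4 libraries labelled knockout on MCD and the 4 labelled wild type on MCD, 8 of the 16 libraries of the series, and every gene with enough counts to be tested, 11162 of the 17168 genes in the count table. All animals were Sprague Dawley rats. The knockouts carried the genotype tspo -/-, and both groups ate the MCD diet for 8 weeks from 12 weeks of age, so that liver was taken at 20 weeks. The other 8 libraries came from rats of both genotypes kept on chow for the same time. They entered the fit to estimate the spread between libraries, and their genotype difference is set beside that on MCD. The sources used here do not give which part of Tspo was removed, or whether every cell type lost it. Nor do the labels state that each library is a different animal, and all p-values rest on how far these libraries spread, which may be technical in part.

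Tspo encodes the translocator protein. It sits in the outer membrane of mitochondria, binds cholesterol and porphyrins and is the target of many synthetic ligands. It has long been studied for the entry of cholesterol into mitochondria, where steroid and acidic bile acid synthesis begin, and it is abundant in activated macrophages. The MCD diet withholds the precursors of phosphatidylcholine, which the liver needs to export fat as lipoprotein. It is used to bring about steatohepatitis, in which fat storage is followed by inflammation and scarring. The series' design text states that the diet was given to wild-type and knockout rats to induce this disease, and the comparison asks which transcripts differ between the genotypes once it is established.

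Library totals on MCD ran from 10749769 to 15762650 counts. Levels are given in CPM, library-size-scaled counts corrected by TMM factors, and differences as the log2 fold of knockout minus wild type from edgeR. Libraries are called by genotype and the number in their label. The library labelled knockout 1 stood apart from the other 7 on MCD. On the first principal component of log2 CPM, which held 40.2% of the variance among the 8, it lay at 63.0 and the others between -17.0 and 5.4. An index that subtracts the mean log2 CPM of 24 short messages from that of 15 long messages was -1.09 in it and 0.93 to 1.52 in the others, relative to the wild type on chow. Tspo itself was also highest there among the knockout libraries, as shown next. Main results are therefore given both with all libraries and without knockout 1. On chow the index was -1.51 in the library labelled knockout 4 and -0.55 to 0.20 in the other 7, so each knockout group held a library with a low index.

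Tspo was measured first, because it checks the labels. In the wild type on MCD it stood at 8.78, 9.33, 7.95 and 7.63 CPM in libraries 1 to 4. In the knockout it stood at 4.17, 1.66, 1.02 and 1.21 CPM, from 60, 29, 14 and 22 counts. All 4 knockout libraries lay below all 4 wild-type libraries, and knockout 1 lay between the other 3 and the wild type. Its 95% Poisson interval of 3.18 to 5.37 CPM, which covers counting error only, overlapped neither the wild-type intervals, which began at 6.50 CPM or above, nor those of the other knockouts, which ended at 2.38 CPM or below. The mean was 8.42 ± 0.778 CPM (SD, n = 4) in the wild type and 2.02 ± 1.46 CPM (SD, n = 4) in the knockout, a log2 fold of -2.07 ± 0.45 (SE). Over all genes tested this had an unadjusted p of 0.000291 and an adjusted p of 1 with edgeR's quasi-likelihood test. Without knockout 1 the log2 fold was -2.68 ± 0.43, with an unadjusted p of 1.35e-05 and an adjusted p of 0.152. That library was doubted for its Tspo level, so leaving it out widens this difference by construction. An exact two-sided permutation test on log2 CPM of this gene alone gave p = 0.0286 both with 4 against 4 and with 3 against 4 libraries, the smallest value either split allows. The value with 3 against 4 was fixed in advance, since all 4 knockouts already lay below the wild type. On chow the wild type had 3.61 to 5.23 CPM, 3 knockouts had 0.656 to 1.29 CPM, and the library labelled knockout on chow 4 had 4.42 CPM, inside the wild-type range.

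**Figure D1:**
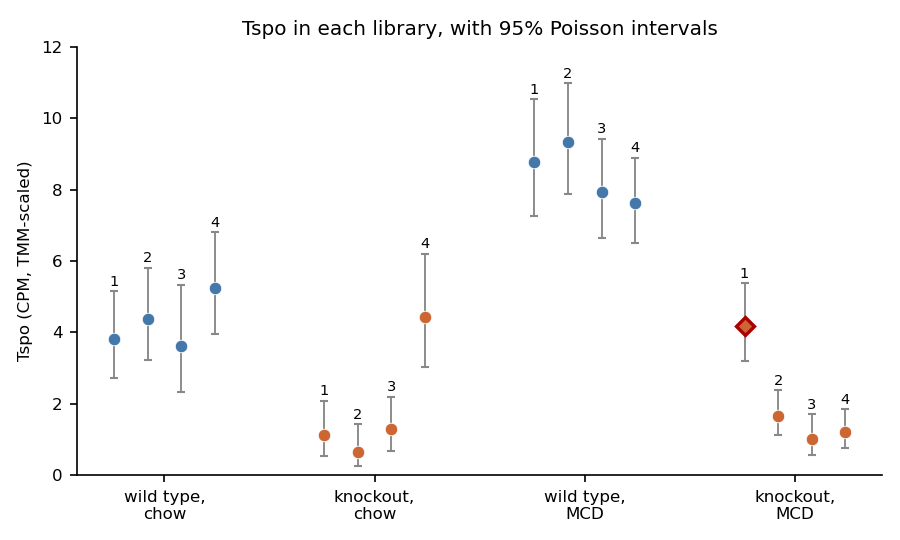
Tspo level (CPM, vertical axis) in each of the 16 libraries by genotype and diet, with 95% Poisson intervals as bars, library numbers above them and knockout 1 on MCD drawn as a diamond. On MCD the wild-type libraries lie between 7.63 and 9.33 CPM and the knockouts between 1.02 and 4.17 CPM.

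No gene passed the threshold of an adjusted p under 0.05 between the genotypes on MCD, that is 0 of 11162 genes (0%) with edgeR. Without knockout 1 it was 0 of 11247 (0%), where Tspo had the smallest adjusted p. DESeq2 called 0 genes with all libraries and 1, Tspo, without knockout 1. Limma-voom with a weight for each library called 2, Tspo and Bcmo1, with all libraries and Tspo alone without knockout 1. At an unadjusted p under 0.05, edgeR had 33 genes higher in the knockout (0.296%) and 48 lower (0.43%). Without knockout 1 these were 28 higher (0.249%) and 39 lower (0.347%). Both directions together made up 0.726% of genes with all libraries and 0.596% without knockout 1. Either is far under the share of 0.05 that this threshold would give with no difference at all, so these p-values do not follow that share. The counts are therefore no sign of differing genes. They are no sign of their absence either, since edgeR did not call even Tspo, the targeted gene. Why the share was so low was not tested. Libraries of the genotypes did not overlap for 47 genes higher in the knockout (0.421%) and 42 lower (0.376%). Without knockout 1, with 3 against 4 libraries, they did not overlap for 146 higher (1.3%) and 129 lower (1.15%). Of the 70 possible splits of 4 against 4 libraries, 1 puts the knockouts of a gene wholly on a given side. With 3 against 4 it is 1 of 35. The shares seen were not above these, so groups that do not overlap are described below as values and not as a mark of a difference.

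The size of the differences was small for most genes. The median log2 fold over all genes was 0.0019, with the 5th percentile at -0.35 and the 95th at 0.41. Only 60 genes (0.538%) had a fitted difference above 2-fold, and 64 (0.569%) without knockout 1. The 95% interval of the log2 fold had a median half-width of 0.53, and for 8784 genes (78.7%) the whole interval lay within a 2-fold difference in either direction. For the other genes the interval reached a 2-fold difference or went past it. For some, such as Tspo (-3.02 to -1.11) and Sstr3 (-2.84 to -1.05), it lay wholly beyond 2-fold. The spread depended on which libraries were fitted: the common biological coefficient of variation was 28.0% with all 16 libraries, 23.8% with the 8 on MCD and 18.4% with the 7 on MCD without knockout 1. In that last fit the count at an unadjusted p under 0.05 was 163 in place of 67, and Tspo was called with an adjusted p of 0.00135, again in edgeR.

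**Figure D2:**
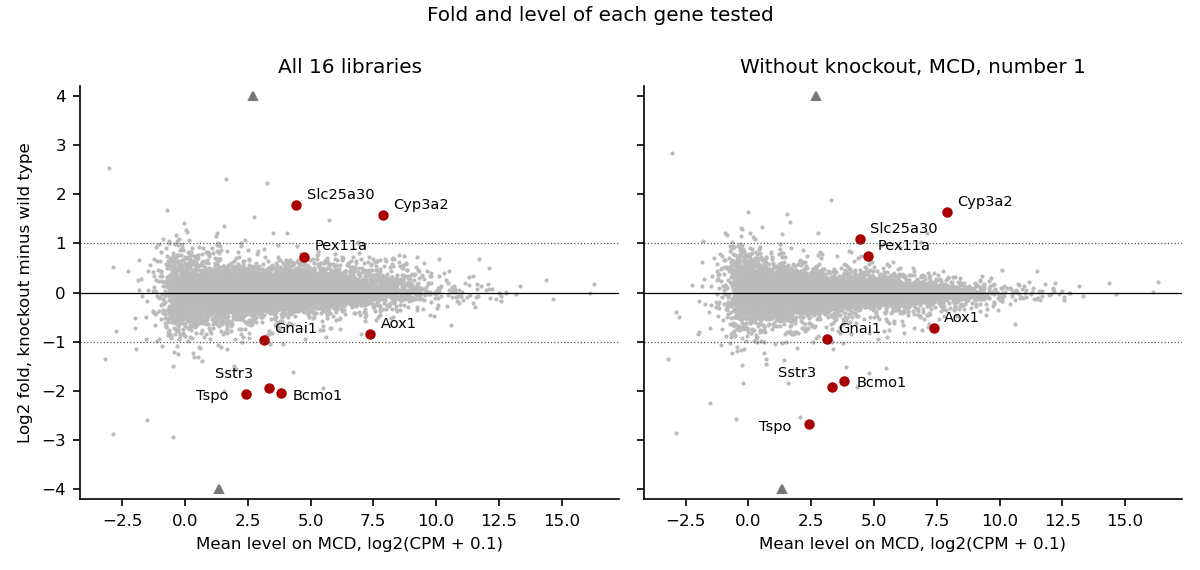
Log2 fold of knockout minus wild type on MCD (vertical axis) against the mean level on MCD over all 8 libraries (log2 CPM, horizontal axis) for each gene tested, with all 16 libraries (left) and without knockout 1 (right). Red points are 8 named genes, dotted lines mark a 2-fold difference, and triangles are genes beyond the axis. Tspo, Sstr3 and Bcmo1 lie lowest among the named genes in both panels.

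Genes with the smallest p are described next as values, since none of them but Tspo and Bcmo1 was called under any setting tried, and each was picked for its p. Sstr3 encodes a somatostatin receptor coupled to inhibitory G proteins. It had 12.3, 27.2, 17.2 and 7.06 CPM in wild type 1 to 4 and 3.96, 3.43, 5.67 and 3.48 CPM in knockout 1 to 4. The groups did not overlap, and the log2 fold was -1.95 ± 0.42 (unadjusted p 0.000271), and -1.93 without knockout 1. Gnai1, which encodes an inhibitory G protein subunit that such receptors use, had 13.2, 10.2, 7.89 and 14.7 CPM in the wild type and 5.77, 4.64, 4.37 and 8.89 CPM in the knockout. Here knockout 4 lay above wild type 3, and the log2 fold was -0.96 ± 0.24, and -0.95 without knockout 1.

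Bcmo1 encodes the oxygenase that cleaves beta-carotene into retinal. It had 16.2, 28.7, 28.7 and 15.5 CPM in the wild type, against 2.23, 2.58, 14.5 and 2.43 CPM in the knockout. Knockout 3 was near the lower wild-type libraries and the other 3 knockouts were far below. The log2 fold was -2.05 ± 0.55 with all libraries and -1.80 without knockout 1, not called in either (adjusted p = 1, edgeR). Without knockout 3 it was -3.20 and called (adjusted p = 0.0234, edgeR), and over the other settings the adjusted p ran from 0.0496 with limma-voom to 1. Id1 encodes an inhibitor of DNA-binding helix-loop-helix factors and is a target of bone morphogenetic protein signals. It had 22.1, 13.2, 21.5 and 24.8 CPM in the wild type and 17.6, 10.9, 9.53 and 13.5 CPM in the knockout. Its log2 fold was -0.66 ± 0.22, and -0.85 without knockout 1.

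Aox1 encodes aldehyde oxidase, a molybdenum enzyme of drug and retinal oxidation. Its levels were 200, 188, 196 and 274 CPM in the wild type and 88.8, 114, 126 and 150 CPM in the knockout, with no overlap. The log2 fold was -0.85 ± 0.30 (unadjusted p 0.0119) and -0.73 without knockout 1. Its close relatives Aox2 and Aox3, with which reads could be shared, had log2 folds of 0.17 and -0.32. Psph, the last enzyme of serine synthesis, had 7.87, 8.75, 7.22 and 10.2 CPM in the wild type and 5.91, 6.07, 6.77 and 6.85 CPM in the knockout. Those groups did not overlap either, at a log2 fold of -0.41 ± 0.16, or -0.38 without knockout 1. Rabl2a, a small GTPase, was the remaining gene of the lower set whose groups did not overlap (5.74 to 6.92 against 3.82 to 5.38 CPM). Its log2 fold was -0.44 ± 0.17, and -0.36 without knockout 1. Slc20a1, a phosphate transporter, and Ccnf, a cyclin that guides protein degradation, had log2 folds of -0.74 ± 0.30 and -0.89 ± 0.36 with overlapping libraries. Without knockout 1 they were -0.65 and -0.75.

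Among genes with higher levels in the knockout, Pex11a, a peroxisomal membrane protein that promotes peroxisome division, had 28.8, 22.5, 15.7 and 13.3 CPM in the wild type and 33.1, 35.8, 31.1 and 33.0 CPM in the knockout. The 4 knockouts were close together and above every wild-type library, with a log2 fold of 0.73 ± 0.23 (unadjusted p 0.00498) and the same value without knockout 1. Cyp3a2, a drug- and steroid-oxidising cytochrome P450 typical of male rat liver, had 204, 167, 81.0 and 24.4 CPM in the wild type and 315, 491, 411 and 205 CPM in the knockout. The groups met but did not overlap, and the log2 fold was 1.58 ± 0.58 and 1.63 without knockout 1. Gucy1b2, a guanylate cyclase subunit, had a log2 fold of 0.51 with all libraries and without knockout 1, with overlapping groups.

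Several of the remaining higher genes had their highest level in knockout 1. Slc25a30, a mitochondrial carrier, had 7.49 to 10.9 CPM in the wild type and 71.8, 43.7, 11.3 and 6.18 CPM in the knockout. Without knockout 1 its log2 fold went from 1.78 to 1.08 (unadjusted p 0.159). Birc2, an inhibitor of apoptosis, had 18.6 to 21.6 CPM in the wild type and 43.3, 28.2, 20.4 and 19.6 CPM in the knockout, and its log2 fold went from 0.47 to 0.18 without that library. Fam89a behaved alike, from 0.60 to 0.23. Cyp3a62 went from 0.78 to 0.42. Sncg, a synuclein, had 0.518 to 2.09 CPM in the wild type and 11.9, 3.95, 3.86 and 0.386 CPM in the knockout, so that 3 knockouts lay above every wild-type library. Its log2 fold went from 2.30 to 1.43.

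**Figure D3:**
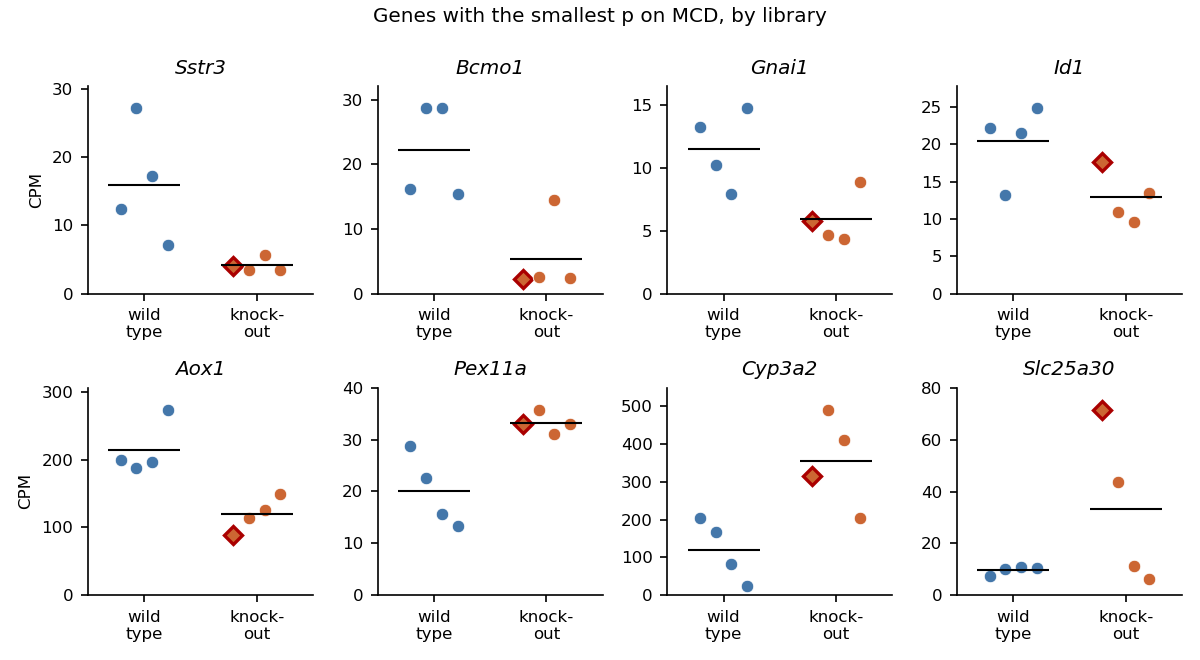
Level (CPM, vertical axes from 0) of 8 genes with small p in each of the 8 MCD libraries by genotype, with group means as lines and knockout 1 as a diamond. Sstr3, Bcmo1, Aox1, Pex11a and Cyp3a2 show no overlap between the groups, while Slc25a30 is high in knockouts 1 and 2 only.

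The gene lists below cover the pathways known for Tspo and for diet-induced liver disease. Each is described by its counts and its median, to be read against the shares of all genes given above and the median of 0.0019. Of the 41 lists, 32 had a median that changed sign when 1 of the 8 MCD libraries was left out, and so did 6 of the 13 whose median was over 0.1 in size. Those 6 are the matrix, lymphocyte, red blood cell, oxidative phosphorylation, long message and short message lists. In bulk liver, fewer cells of a type and less RNA per cell cannot be told apart.

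Of 22 genes tested for the ligand and partners of Tspo and for mitochondrial cholesterol import, Tspo alone had an unadjusted p under 0.05 or non-overlapping groups. The median log2 fold of the list was -0.002, and -0.03 without knockout 1. Dbi, the acyl-CoA-binding peptide that is the natural ligand, had 294, 193, 289 and 231 CPM in the wild type and 673, 225, 233 and 240 CPM in the knockout. Knockout 1 alone was high, and the log2 fold of 0.45 ± 0.43 became -0.11 without it. Vdac1, the anion channel beside which the protein sits, had a log2 fold of -0.02 with a 95% interval of -0.41 to 0.37. For Cyp27a1, the mitochondrial sterol hydroxylase that starts the acidic bile acid pathway, it was -0.04 (-0.41 to 0.34). Star, the steroidogenic cholesterol carrier, was at 0.139 to 0.655 CPM in the 8 libraries, below the level tested. Intervals of 19 of the 22 genes lay within 2-fold.

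Cholesterol synthesis and uptake had 24 of 26 members with a negative log2 fold and a median of -0.27, or -0.21 without knockout 1. None was called and no member had non-overlapping groups. The libraries varied widely within both genotypes. Hmgcs1, which makes the precursor of mevalonate, had 1328, 338, 838 and 1490 CPM in the wild type and 433, 474, 610 and 1391 CPM in the knockout. Wild type 2 was thus the lowest of all 8, and knockout 4 was among the highest. Without knockout 4 the list median was -0.59 with all 26 members negative, and without wild type 4 it was -0.12. Lss, the lanosterol-forming cyclase, was the member with an unadjusted p under 0.05 (0.0462), at 87.4, 23.2, 24.9 and 73.7 CPM against 32.1, 29.0, 26.9 and 35.2 CPM. Wild types 1 and 4 were high, and wild types 2 and 3 were below all the knockouts. Without knockout 1 the unadjusted p of Lss was 0.0664 (edgeR). Bile acid genes had a median of 0.015 over 22 members, and Cyp7a1, the rate-limiting enzyme of the classical pathway, had a log2 fold of -0.34 ± 0.39. Sterol efflux and sensing genes, such as Abca1, had a median of 0.02 over 15.

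Of 35 matrix genes, 31 had a negative log2 fold, with a median of -0.30, or -0.20 without knockout 1. None was called or had an unadjusted p under 0.05. This leaning rested on wild type 2. Col1a2, a chain of the main scar collagen, had 47.2, 155, 50.3 and 52.0 CPM in the wild type and 27.6, 65.9, 58.9 and 54.0 CPM in the knockout. Col1a1, the other chain, had 20.6, 159, 28.8 and 19.4 CPM against 20.3, 51.2, 37.3 and 24.8 CPM. Without wild type 2 the log2 fold of Col1a1 went from -0.77 to 0.54 and that of Col3a1, the reticular fibre collagen, from -0.33 to 0.22. The list median then was 0.13, with 22 members positive and 13 negative. Col8a1, a short-chain collagen, was the member with non-overlapping groups, at 4.94 to 9.53 CPM in the wild type and 2.98 to 4.73 CPM in the knockout. Its log2 fold was -0.61 ± 0.29, and -0.33 without wild type 2. With the index of long and short messages in the model the list median was -0.08.

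Other genes of scarring gave no call. Stellate cell and myofibroblast markers had a median of -0.004 over 19 genes. Acta2, the contractile actin of activated stellate cells, had 4.62, 11.6, 5.34 and 7.58 CPM in the wild type and 2.43, 6.58, 8.51 and 9.72 CPM in the knockout, a log2 fold of -0.09 ± 0.41. The profibrotic signals and receptors had a median of -0.15 over 25 genes. Tgfb1, the main profibrotic cytokine, had a log2 fold of -0.13 ± 0.36 and Ctgf, a matricellular protein it induces, -0.38 ± 0.33. Among 20 proteases and inhibitors the median was -0.01. Timp1, the inhibitor of matrix metalloproteinases, had 12.2, 21.7, 15.3 and 22.0 CPM against 14.5, 10.5, 11.3 and 16.2 CPM, a log2 fold of -0.44 ± 0.26. The intervals of Col1a1 (-2.20 to 0.67), Acta2 (-0.96 to 0.77) and Timp1 (-0.998 to 0.12) give the range of differences that lay within the error of these libraries.

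No inflammatory gene was called. Lipid-associated macrophage markers had a median of 0.04 over 14 genes. Gpnmb, a marker of lipid-laden macrophages, had 154, 260, 101 and 225 CPM in the wild type and 127, 200, 155 and 233 CPM in the knockout. Trem2, the lipid-sensing receptor of these cells, had 2.50, 12.5, 3.22 and 4.62 CPM against 11.4, 7.79, 5.60 and 3.15 CPM, with high libraries in both groups. Msr1, a scavenger receptor, did not overlap between the groups (17.9 to 20.7 against 21.3 to 25.2 CPM), at a log2 fold of 0.23 ± 0.29. Kupffer cell and monocyte markers had a median of 0.16 over 20 genes, or 0.07 without knockout 1. For 27 chemokines, cytokines, adhesion molecules and NF-kB targets it was 0.08. Ccl2, the monocyte chemoattractant, had a log2 fold of 0.15 ± 0.44, and Tnf was below the level tested, at 0 to 0.773 CPM.

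MHC class II genes, which present antigen on macrophages, dendritic cells and B cells, had 8 of 9 negative log2 folds and a median of -0.39, or -0.33 over 10 genes without knockout 1. Cd74, the invariant chain, had 277, 342, 610 and 249 CPM in the wild type and 248, 236, 243 and 318 CPM in the knockout. Wild type 3 was high, and without it the list median was -0.08. Interferon-stimulated genes had a median of 0.06 over 32, or 0.13 without knockout 1. Bst2, an antiviral membrane protein, had an unadjusted p of 0.0396, at 74.2, 89.4, 78.1 and 61.6 CPM against 121, 84.3, 112 and 124 CPM. Knockout 2 lay below wild type 2, and without knockout 1 the unadjusted p of Bst2 was 0.0778 (edgeR). The 14 lymphocyte markers tested had a median of 0.16 and the 3 neutrophil markers -0.002. Without knockout 4 the lymphocyte median was -0.008, with 7 positive and 7 negative. Among the former Gzma, a cytotoxic granule protease, had an unadjusted p of 0.0253 at 0.587 to 1.27 CPM in the wild type and 1.09 to 2.02 CPM in the knockout. Without knockout 1 its unadjusted p was 0.0642 (edgeR).

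The lists of fat metabolism had small medians of either sign. Fatty acid and triglyceride synthesis had 15 of 24 members negative and a median of -0.10. Without knockout 1 it was -0.03 with 13 negative, and without wild type 3 it was 0.006 with 11 negative. Fasn, fatty acid synthase, had 294, 252, 389 and 468 CPM in the wild type and 105, 180, 299 and 390 CPM in the knockout, a log2 fold of -0.52 ± 0.33 that became -0.27 without knockout 1. Scd1, the stearoyl-CoA desaturase, had a log2 fold of -0.56 ± 0.37. Fatty acid oxidation and ketogenesis had 25 of 33 positive and a median of 0.09. Cpt2, a carnitine transferase of the mitochondrial inner membrane, had a log2 fold of 0.21 ± 0.16. Without wild type 4 that median was -0.0008, with 16 positive and 17 negative.

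Lipid droplet, lipase and fatty acid carrier genes had 19 of 20 positive and a median of 0.13, and the same counts with a median of 0.12 without knockout 1. No member was called, had an unadjusted p under 0.05 or had non-overlapping groups. Plin2, the main droplet coat protein of hepatocytes, had 215, 313, 324 and 205 CPM in the wild type and 192, 322, 379 and 222 CPM in the knockout. Fabp4, a fatty acid carrier of fat cells and macrophages, had 31.2, 59.7, 20.9 and 35.4 CPM against 117, 44.6, 33.8 and 36.1 CPM. Knockout 1 was high, and the log2 fold went from 0.65 to 0.05 without it. Over the 8 leave-outs the list median ran from 0.12 to 0.20. Lipoprotein genes had a median of -0.001 over 22, and Mttp, the transfer protein that loads fat onto apolipoprotein B, had a log2 fold of -0.01 with an interval of -0.32 to 0.30.

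Genes tied to the missing nutrients and to stress gave no call. The 32 genes of methionine, choline, serine and one-carbon metabolism had a median of 0.007, or -0.06 without knockout 1, with Psph, described above, as the member with non-overlapping groups. Pemt, which makes phosphatidylcholine by methylation, had a log2 fold of -0.08 (-0.42 to 0.26) and Bhmt, which remethylates homocysteine with betaine, -0.08 (-0.74 to 0.57). The integrated stress response and unfolded protein response had a median of -0.04 over 25 genes. Fgf21, the hormone this response induces in liver, had 20.1, 7.44, 9.40 and 18.1 CPM in the wild type and 8.21, 9.27, 5.38 and 3.92 CPM in the knockout, a log2 fold of -1.04 ± 0.51 (unadjusted p 0.0606). Ddit4, a stress-induced inhibitor of mTORC1, had -0.60 ± 0.28 (unadjusted p 0.0477), or -0.70 (unadjusted p 0.0371, edgeR) without knockout 1. Xbp1, a transcription factor of the unfolded protein response, had 393 and 257 CPM in knockouts 1 and 2 and 114 to 157 CPM in the other 6 libraries. NRF2 targets and glutathione genes had a median of -0.07 over 30, and p53 targets 0.02 over 19, or -0.07 with 14 negative without knockout 1.

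DNA replication and mitosis genes had a median of -0.13 over 32. Ccnb2, a mitotic cyclin, and Cdc20, the activator of the anaphase-promoting complex, had non-overlapping groups, at log2 folds of -0.29 for each. Mki67, a marker of dividing cells, had 30.1, 48.8, 27.2 and 30.6 CPM in the wild type and 7.02, 27.7, 30.7 and 35.8 CPM in the knockout. Knockout 1 was far below the rest, and the log2 fold went from -0.43 to -0.12 without it. Circadian clock genes had 13 of 16 negative and a median of -0.28, which was -0.10 without wild type 4. The sources used here give no time of day for sampling.

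Cytochromes P450 of families 1 to 4 had 26 of 34 positive and a median of 0.07. Without wild type 2 there were 17 positive and 17 negative, with a median of -0.003. With all libraries, members of the Cyp3a family, which oxidise drugs, steroids and bile acids, held both genes with an unadjusted p under 0.05, Cyp3a2 and Cyp3a62. Without knockout 1 the unadjusted p of Cyp3a62 was 0.139 (edgeR), and 2 members of the list were higher and 1 lower at that threshold. Cyp3a23/3a1 had 156, 85.9, 44.8 and 22.7 CPM in the wild type and 152, 183, 166 and 125 CPM in the knockout, a log2 fold of 1.02 ± 0.57. Its wild-type libraries ranked in the same order as those of Cyp3a2. Cyp3a18 had a log2 fold of -0.08 and Cyp3a9 of -0.32. Expected counts share reads between close copies, so values of single Cyp3a genes are uncertain. Cyp2b1 and Cyp2b2, inducible by phenobarbital-like drugs, had 0.46 ± 0.50 and 0.65 ± 0.38, and Cyp4a1, a target of PPAR-alpha, -0.09 ± 0.24.

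Lists of hepatocyte function had medians within 0.1 of that of all genes with all libraries. Plasma proteins and identity factors had a median of -0.007 over 26, and Alb a log2 fold of -0.01 with an interval of -0.39 to 0.36. Gluconeogenesis, urea cycle and amino acid catabolism had a median of 0.09 over 25, or 0.17 without knockout 1. Got1, the cytosolic aspartate aminotransferase, had 52.0 to 57.6 CPM in the wild type and 60.5 to 113 CPM in the knockout. Otc, a mitochondrial enzyme of the urea cycle, had 155 to 191 against 192 to 330 CPM. Neither pair of groups overlapped, at log2 folds of 0.43 ± 0.22 and 0.45 ± 0.40. The growth hormone and IGF axis had a median of 0.02 over 18 genes, with Igf1 at 0.01 ± 0.32. Acute phase genes had a median of -0.06 over 24, and heme and iron genes 0.02 over 23.

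The remaining lists also held no called gene. Endothelial markers had a median of 0.08 over 24 genes, or 0.16 without knockout 1 and -0.05 without knockout 4, and bile duct markers -0.003 over 15. Genes for conjugation and efflux of drugs had 0.03 over 30, or -0.10 without knockout 1. Immediate early and glucocorticoid response genes had -0.002 over 23, or -0.08 without knockout 1, and the sex-biased liver genes 0.08 over 7, or -0.17 without knockout 1. Red blood cell transcripts had 7 of 8 negative and a median of -0.22, which was 0.06 with 3 negative without wild type 3, and the 4 pancreas and fat transcripts tested had 0.01.

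The median of the oxidative phosphorylation subunits had opposite signs with and without knockout 1. With all libraries 37 of 43 were positive and the median was 0.14. Without knockout 1, 30 of 43 were negative and the median was -0.03. Cox7b, a small subunit of cytochrome oxidase, had 81.6, 66.1, 95.5 and 70.8 CPM in the wild type and 292, 80.1, 79.7 and 68.8 CPM in the knockout. With the index of long and short messages in the model, the oxidative phosphorylation median was -0.08. Of the 24 short messages used for the index, all were positive with all libraries (median 0.47) and 17 were negative without knockout 1 (median -0.04). The 14 long messages tested had a median of -0.18 and, without that library, 0.01.

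**Figure D4:**
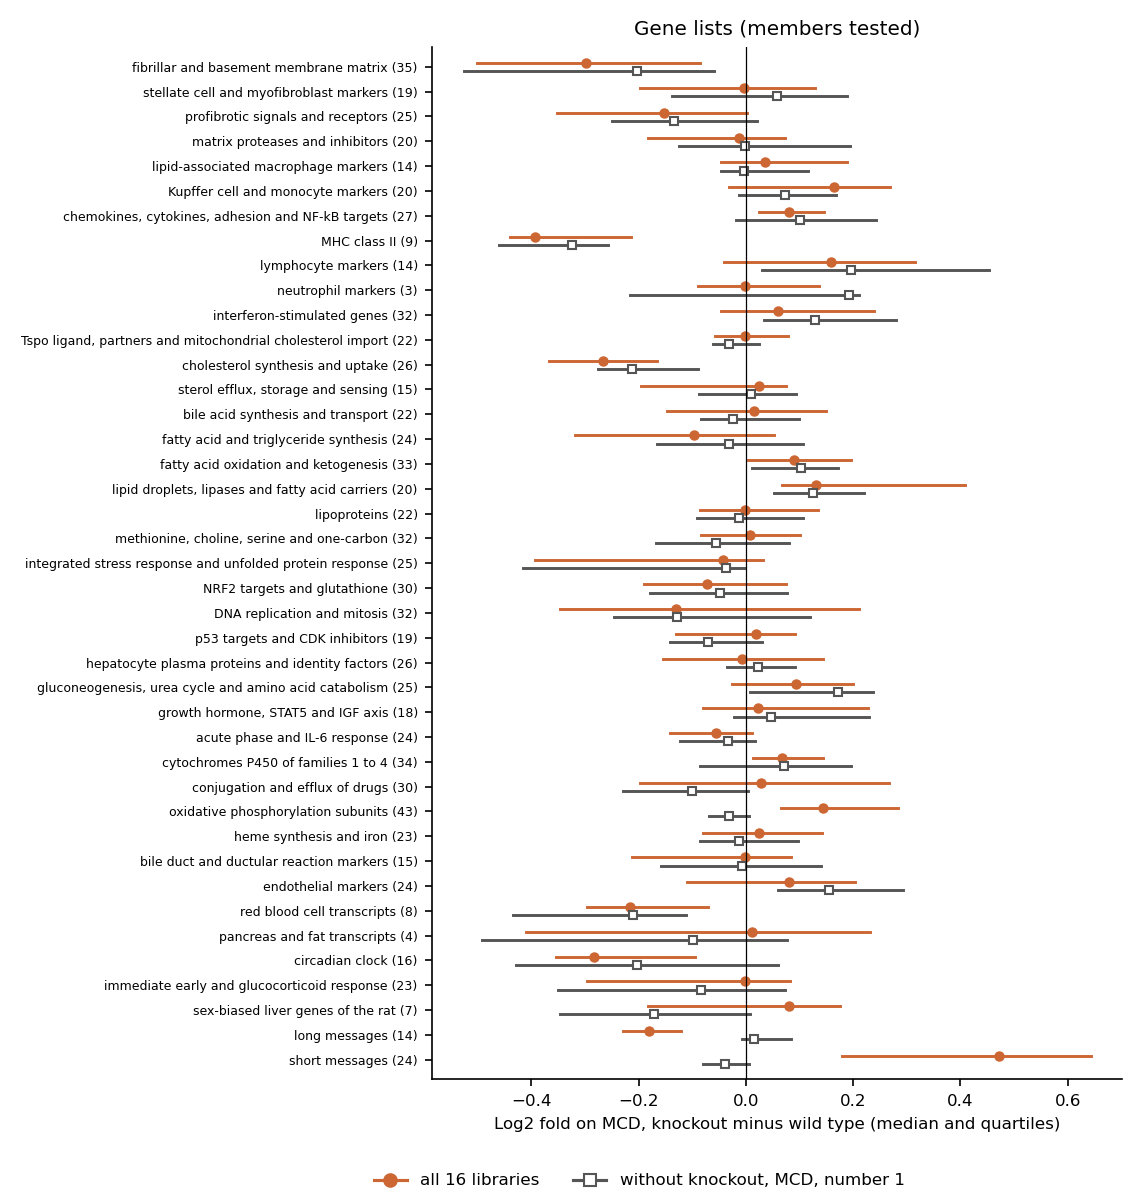
Median (points) and quartiles (lines) of the log2 fold of knockout minus wild type on MCD for each gene list, with the number of members tested in brackets, with all 16 libraries (filled circles) and without knockout 1 (open squares). Oxidative phosphorylation and short messages cross 0 without knockout 1, while matrix, MHC class II and cholesterol synthesis stay below 0 in both.

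**Figure D5:**
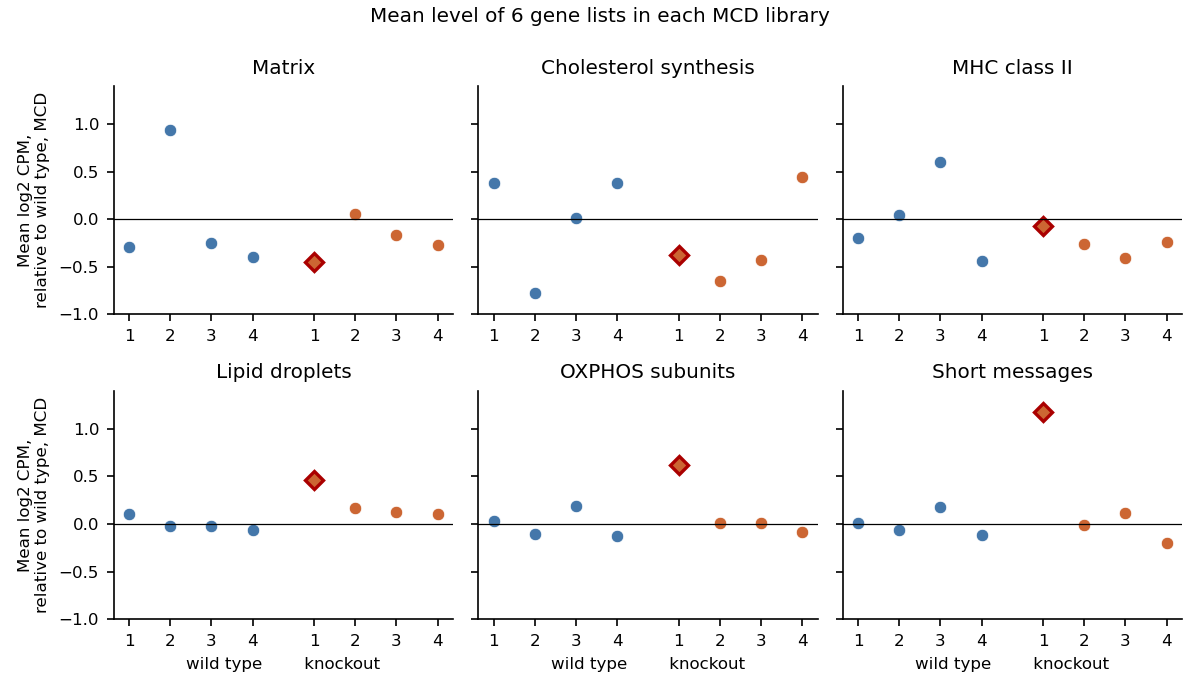
Mean log2 CPM of 6 gene lists in each MCD library (horizontal axis, library number by genotype), relative to the mean of the 4 wild-type libraries, with knockout 1 as a diamond. Wild type 2 is high for the matrix list (0.94), wild type 3 for MHC class II (0.60) and knockout 1 for oxidative phosphorylation (0.62) and short messages (1.17).

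Markers of the cell types a liver sample can hold were summed in each library. The 6 hepatocyte markers summed to 96392 to 135428 CPM in the wild type and 101991 to 122850 CPM in the knockout. Macrophage markers (5 genes) summed to 243 to 345 against 262 to 419 CPM, and 4 stellate cell markers to 102 to 188 against 78.0 to 162 CPM, the lowest in knockout 1. Endothelial markers (5 genes) summed to 123 to 190 against 118 to 239 CPM, and 2 bile duct markers to 43.2 to 47.4 against 36.2 to 58.9 CPM. The lowest endothelial sum was in knockout 1, and the other knockouts had 157 to 239 CPM. Lymphocyte markers (4 genes) summed to 26.9 to 40.4 against 16.1 to 40.3 CPM, the lowest in knockout 1, with 30.4 to 40.3 CPM in the other knockouts. In each of these the ranges of the genotypes overlapped. The neutrophil marker Mpo, the pancreas markers Prss1 and Cpa1 and the fat marker Lep were at 0 in all 8 libraries. The fat marker sum was highest in knockout 1, at 13.4 CPM against 3.91 to 7.83 CPM in the wild type. So was the low neutrophil sum, at 2.16 CPM against 0.343 to 0.552 CPM in the other knockouts and 0.364 to 0.801 CPM in the wild type. The part of these cell types in the differences above was not tested.

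The chow libraries are separate samples, so the genotype difference there is a second measurement of the genes named on MCD. Of the 81 genes at an unadjusted p under 0.05 on MCD, 55 had the same sign on chow and 12 (14.8%) were also at p under 0.05 there with that sign, while 1 was with the opposite sign. On chow 10.3% of all genes tested were at p under 0.05 in either direction, and the library labelled knockout on chow 4, with its low index and a Tspo level inside the wild-type range, is among those libraries. Without knockout 1 on MCD, 30 of 67 genes had the same sign on chow and 7 (10.4%) were at p under 0.05 on both diets with that sign. The share of all genes on chow, in either direction, was then 13.5%. Without both of these libraries it was 53 of 112 and 11 (9.82%), beside 10.3% of all genes in either direction, a setting added after seeing the data. Of the first 12 genes, 5 remained in each of these fits: Sstr3, Tspo, Aox1, Reep1 and Mrm1. Both contrasts come from 1 fit and share its estimate of the spread. The shares of all genes count both directions, while those of the genes picked on MCD count 1 sign only. They are therefore not like for like, and the share of all genes with a matching sign was not computed.

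Aox1 and Mrm1 were the genes, 2 of the 11162 tested, whose libraries did not overlap in the same direction on both diets. How many genes would do so by chance was not tested. Aox1 on chow had 789, 712, 436 and 334 CPM in the wild type and 123, 320, 263 and 266 CPM in the knockout, a log2 fold of -1.23 ± 0.30 (unadjusted p 0.000857, adjusted p = 0.396 with edgeR). Mrm1, which methylates mitochondrial ribosomal RNA, had 4.43 to 5.46 CPM in the wild type and 3.03 to 4.31 CPM in the knockout on MCD. On chow it had 4.47 to 5.78 against 2.73 to 4.16 CPM. Its log2 folds were -0.47 ± 0.19 on MCD and -0.53 on chow. Mrm1 was singled out after its values were seen.

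The other 10 genes low or high on both diets were Sstr3, Tspo, Kctd17, Cyth3, Pcolce and Adcy3, with negative log2 folds, and Reep1, Med4, Mgmt and B3galnt1, with positive ones. Sstr3 on chow had 1.30, 1.77, 2.17 and 0.285 CPM in the wild type and 0.795, 0.109, 0.297 and 0.402 CPM in the knockout, a log2 fold of -1.73. Mgmt, the repair protein that removes alkyl groups from guanine, had 13.4 to 19.2 CPM in the wild type and 40.7, 29.7, 30.2 and 16.0 CPM in the knockout on MCD. Its log2 folds were 0.95 ± 0.39 on MCD and 1.08 on chow, with overlapping libraries in both. Without knockout 1 the former was 0.74 (unadjusted p 0.0927, edgeR), and without both doubtful knockout libraries the latter was 0.58 (unadjusted p 0.0976, edgeR). Its highest level on chow, 129 CPM, was in knockout 4. Pcolce, which enhances procollagen processing, had -0.52 and -0.61, and -0.40 and -0.44 without those 2 libraries.

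For other genes named for MCD the values on chow were closer together or lay the other way. As group means on chow, Bcmo1 had 4.66 CPM in wild-type and 4.83 CPM in knockout liver, a log2 fold of 0.02, and Pex11a -0.14. Cyp3a2 had 944 and 710 CPM there, a log2 fold of -0.41. The differences between the diets' genotype effects were -2.07 for Bcmo1 (unadjusted p 0.0201), 0.87 for Pex11a (unadjusted p 0.0149) and 1.99 for Cyp3a2 (unadjusted p 0.0243). For Fam89a, whose log2 fold on MCD shrank without knockout 1, it was 1.08 (unadjusted p 0.00875, edgeR). These p-values are biased low, because each gene was picked for a small p on MCD, which is part of this contrast. None passed the threshold over all genes (edgeR, adjusted p = 1 for each), and no gene of the 11162 did, with 330 at an unadjusted p under 0.05 and a smallest adjusted p of 0.852. For Tspo the difference was -0.84 ± 0.66.

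The genes beside Tspo were looked at by their order along the chromosome, taken from RefSeq's annotation of assembly GRCr8, which served for neighbours only. Of the 100 tested genes nearest to Tspo, 50 on each side, 1 had libraries wholly higher in the knockout on MCD and 0 wholly lower. Over all 733 other tested genes of its chromosome, those 100 included, 4 were wholly higher and 6 wholly lower. Without knockout 1 these counts were 2 higher and 2 lower among the 100, and 10 higher and 12 lower among the 733. Over all genes tested the shares were 0.421% higher and 0.376% lower, and without knockout 1 they were 1.3% and 1.15%. Kctd17, Sstr3 and Rabl2a lay on the same chromosome as Tspo. Kctd17 was the 87th and Sstr3 the 83rd tested gene to one side, and Rabl2a the 51st to the other. These positions were looked at after the values of the genes were seen. Sstr3 and Rabl2a were wholly lower with and without knockout 1 but lay outside the 100. The count of 0 wholly lower thus depends on where the window ends. Whether named genes lie on this chromosome more often than its 733 of the 11162 tested genes would give was not tested.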

How the data were processed

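Poly(A) RNA of rat liver was sequenced from 16 libraries, per the labels' protocols. The authors deposited expected counts per gene from RSEM. Bowtie2 2.1.0, RSEM 1.2.15 and the rat build rn6 appear in the submitters' processing notes. The sources used here give neither the gene annotation nor the strand setting. Expected counts share reads between close copies, so single members of the Cyp3a, Aox, sulfotransferase and other close families are uncertain. A second deposited table of scaled values was not used.

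Rounded counts went into edgeR 4.0.16 (R 4.3.3): filterByExpr over the 4 groups, TMM factors, 1 term per group, robust quasi-likelihood test, Benjamini-Hochberg adjustment over all genes tested, threshold 0.05. The comparison was knockout minus wild type on MCD, with all 16 libraries and without knockout 1. An SE is the size of the log2 fold divided by the square root of F, and 95% intervals used the fit's total degrees of freedom. Log2 CPM has a prior count of 2. Library totals run from 8745756 to 15762650 counts. Poisson intervals cover counting error only. No pair of MCD libraries of a group agreed within sampling noise (chi-square per gene of 30.4 or more over genes with at least 20 counts in both libraries together). Alternatives used DESeq2 1.42.0 and limma 3.58.1. The scripts were tested on simulated data.

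Lists are described by counts and medians, with no set test. The comparison, the members and the lists were chosen with earlier results of these data known. Named genes are Tspo, the 10 genes per direction with the smallest p (mean of 5 CPM or more in 1 group, no placeholder symbol) and up to 4 members per list with the smallest p. Other named genes were chosen for their known roles, some after their values were seen. Some results on single genes are not reported here.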

Additional observations from a re-analysis of the deposited data

Results flagged for a closer look

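Within each group of 4 MCD libraries, a library was marked when it lay far from the other 3 against the range of the group (Dixon's 95% limit), which chance does in about 1 in 20 groups. This held for 26 of 166 groups examined for single genes, 3 of 82 for list means and 1 of 4 for library measures. The genes examined were those named in this report. Some were named because single libraries stood out, and some vary together, so the share for genes cannot be set against 1 in 20. Causes were not tested.

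Knockout 1 was marked on the first principal component, at 63.0. It was also far from the other knockouts for the oxidative phosphorylation list (0.62 in mean log2 CPM relative to the wild type on MCD), Cox7b (292 CPM), Dbi (673 CPM), Fabp4 (117 CPM), Otc (330 CPM), Pemt (113 CPM), Cdc20 (7.09 CPM) and, on the low side, Tgfb1 (8.97 CPM).

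Wild type 2 was marked for matrix genes. The list mean was 0.94 and the levels were 159 CPM for Col1a1, 155 CPM for Col1a2, 735 CPM for Col3a1 and 9.53 CPM for Col8a1. Mki67 was also highest there, at 48.8 CPM.

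Knockout 4 was marked for the bile acid genes Cyp7a1 (432 CPM) and Cyp27a1 (225 CPM), and for Got1 (113 CPM) and Cd74 (318 CPM). Knockout 3 was marked for Bcmo1 at 14.5 CPM and knockout 2 for Cyp2b1 at 27.1 CPM. Wild type 4 was marked for Aox1 at 274 CPM, wild type 3 for Mgmt at 19.2 CPM, and wild type 1 for the sterol efflux list at 0.32.

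Some genes were present in single libraries of a group and at or near 0 in others. They were chosen after their values were seen. Sult1e1, the estrogen sulfotransferase, had 19.4 CPM in wild type 1, 0.0552 CPM in knockout 4 and 0 in the other 6. Acaa1b, a peroxisomal thiolase, had 23.8 CPM in wild type 1, 4.94 and 3.20 CPM in knockouts 1 and 3 and 0 in the other 5. Ubd, a ubiquitin-like modifier, had 0.227, 149, 77.3 and 54.8 CPM in the wild type and 0.487, 0.172, 73.1 and 0.221 CPM in the knockout, where knockout 3 was marked. RGD1560242 had 8.71, 0.0653, 7.52 and 6.07 CPM in the wild type and 0.139, 0, 0 and 7.45 CPM in the knockout, where knockout 4 was marked. LOC100911576, a locus without a gene name, had 1.51 CPM in wild type 1 and 0 in the other wild types, against 0.209, 0, 24.2 and 25.5 CPM in the knockout.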

How the results depend on the processing

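With all libraries edgeR called 0 genes. The count was 2 (Tspo and Bcmo1) with limma-voom and quality weights, 1 (Tspo) without wild type 4 and knockout 4 on chow and knockout 1 on MCD, 1 (Tspo) with the index of long and short messages in the model, and 1 (Tspo) with limma-voom on the MCD libraries, a setting added after seeing the data. Leaving out each MCD library gave 0 to 1, the 1 being Bcmo1 without knockout 3. Starting without knockout 1, the count was 1 (Tspo) in place of 0 with the MCD libraries only, library totals, DESeq2, limma-voom, those 3 libraries left out, the index, and the added setting. Leaving out a further library gave 0 to 1, the 1 being LOC100911576 without knockout 2. Every other setting gave 0.

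The log2 fold of Tspo was -2.51 with limma-voom, -2.68 without the 3 libraries, -2.74 with the index and -2.51 with the added setting, past the threshold in each, and -1.85 to -2.68 over the leave-outs. Without knockout 1 it was past the threshold at -2.68 with the MCD libraries, -2.71 with library totals, -2.70 with DESeq2, -2.55 with limma-voom, -2.68 without the 3 libraries, -2.68 with the index and -2.54 with the added setting, and -2.54 to -2.90 over the leave-outs. All values that leave out knockout 1 are descriptions only, since that library was doubted for its Tspo level. The same holds for values with the index in the model. The index was lowest in knockout 1 on MCD (-1.09) and knockout 4 on chow (-1.51), the knockouts with the highest Tspo on each diet.

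At an unadjusted p under 0.05 there were 81 genes, 127 with the MCD libraries alone, 147 with no filter, 323 with limma-voom, 282 with the added setting, 189 without the 3 libraries and 17 against a log2 fold of 0.5. Without knockout 1 there were 67, then 163, 118, 392, 294, 189 and 23. For the 19 named genes other than Tspo, 378 of 380 alternatives kept direction and side of the threshold, and Bcmo1 passed it in the other 2. Of 492 list medians (41 lists, each with 8 leave-outs, 3 scalings and the index), 482 moved by less than 1 SD of the list mean between libraries. This is no sign of a stable direction, since 32 of the 41 lists changed sign in at least 1 leave-out.

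With the replicate number as a block, the count was 0 both with all libraries and without knockout 1, with 78 and 83 genes at an unadjusted p under 0.05, and the log2 fold of Tspo was -2.15 (adjusted p = 1, edgeR) and -2.76 (adjusted p = 0.253, edgeR). Same-numbered libraries of the 2 MCD groups correlated in their deviations at -0.05, 0.33, -0.21 and 0.19, and 2 of the 4 numbers correlated best with their own, so the numbers were not taken as pairs. Library totals moved the median of all genes to -0.04 and the other settings to 0.013 at most. Tspo had 14 to 60 counts in the knockouts on MCD, and the part of depth in its adjusted p was not tested.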

Other observations

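The genes here were chosen after their values were seen, and none was called. Apba2, an adaptor protein, fell under the level set for named genes. It had 3.94, 5.61, 2.61 and 6.12 CPM in the wild type on MCD and 0.765, 0.744, 1.82 and 1.27 CPM in the knockout, with no overlap, a log2 fold of -1.99 and an unadjusted p of 0.00057 (edgeR).

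Cish, a feedback inhibitor of cytokine signals that use STAT5, had 26.1 and 33.1 CPM in knockouts 1 and 2, 3.56 and 0.718 CPM in knockouts 3 and 4, and 0.984 to 7.89 CPM in the wild type. Knockouts 1 and 2 lay above every wild-type library and knockouts 3 and 4 within the wild-type range or below it.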
